A study of Rattus norvegicus with 48 samples.

Results

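Col1a1, Col3a1, Col5a2 and Fbn1 are the 4 genes described here, 3 chains of fibrillar collagens and fibrillin 1. They were chosen by name, with earlier results of these data known, as the rows ENSRNOG00000003897, ENSRNOG00000003357, ENSRNOG00000003736 and ENSRNOG00000007302 of a count matrix that lists 31998 genes. All 4 passed the filter on low counts, which 16960 genes passed. Their RNA was measured by RNA sequencing in 48 libraries from 24 female rats aged 14 months, of generation 19 of 2 lines bred for a low (LRT) or a high (HRT) response to endurance training. In each line 6 rats had 1 hindlimb fixed in a cast in plantar-flexion for 3 d (hindlimb immobilization, HI), and 6 other rats that wore no cast were the controls (CTRL). The plantaris, a mostly fast muscle, and the soleus, a mostly slow muscle, were taken from each rat, which gives 8 groups of 6 libraries. Per the methods of the study, the rats came from genetically heterogeneous stock and had been through a treadmill program as young adults, and puromycin was injected shortly before the muscles were collected. Per the same methods, breeders of each line were selected and mated in a rotational system. The cast limb was compared with limbs of other rats.

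Fibrillar collagens are long triple helices that line up side by side into the fibrils of connective tissue. Col1a1 codes for the main chain of type I collagen, which carries tension in the sheaths of muscle and in tendon. Col3a1 codes for type III collagen, which is woven into the same fibrils and is plentiful in the finer layers around muscle fibres. Col5a2 codes for a chain of type V collagen, a minor part of the fibril core that helps to set where fibrils start and how thick they grow. Fbn1 codes for fibrillin 1, which forms microfibrils, the scaffold on which elastin is laid down and on which latent TGF-beta complexes are held. In muscle these 4 proteins are made mainly by fibroblasts and related cells that lie between the fibres. In RNA from whole muscle, fewer such cells and less RNA per cell cannot be told apart.

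Col3a1 and Col5a2 are neighbours on rat chromosome 9, with 0 other genes that lie wholly between them in the RefSeq annotation of assembly GRCr8. Col1a1 is on chromosome 10 and Fbn1 on chromosome 3. RefSeq promoter entries were matched for 2 of the 4 genes, Col5a2 and Fbn1. The stretch of 250 bases before the start of Col5a2 is shown because each of these neighbours was the gene most like the other in its pattern over the libraries. It lies at chr9:55090152-55090401 of GRCr8, is read on the minus strand from 5′ to 3′, and holds 44.8% G and C.

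Col5a2 promoter: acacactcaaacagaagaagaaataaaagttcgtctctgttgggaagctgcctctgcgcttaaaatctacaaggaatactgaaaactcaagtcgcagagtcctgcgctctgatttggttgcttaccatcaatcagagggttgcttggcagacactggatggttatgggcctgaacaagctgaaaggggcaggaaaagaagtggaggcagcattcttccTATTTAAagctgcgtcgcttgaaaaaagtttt

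The capitals mark TATTTAA, letters that resemble a TATA box and were chosen after the sequence had been read. On either strand, 4.16% of 33469 promoter windows of the same length hold it. Other motifs were searched on both strands too, and each had 0 matches in the windows of Col5a2 and Fbn1. The TATA box, searched as TATAAA, is in 12.9% of all the windows of that length. The box searched as CCAAT, which many promoters carry upstream of their start, is in 34.0% of them. The GC box, searched as GGGCGG, a set of letters that is common in promoters rich in those bases, is in 30.5%. The palindrome that SMAD proteins bind, searched as GTCTAGAC, is in 0.173%. The window of Fbn1 lies inside the annotated gene and holds 71.2% G and C. These matches describe letters only.

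Library totals were between 26.8 and 36.4 M estimated counts, and RIN, the integrity score of the RNA, was between 7.8 and 8.6. The lowest count of a member in any library was 459, for Col1a1 in the soleus of an LRT HI rat, so that the spread between rats and not counting limits the precision. The muscle labels were checked on fibre genes in CTRL rats. All 5 fast fibre genes (Mylpf, Atp2a1, Pvalb, Myoz1 and Casq1) were called higher in plantaris than in soleus in both lines, and 2 of 3 slow fibre genes were called lower. The remaining slow fibre gene was higher in estimate in both lines and was not called. Of all 16960 genes, 2875 in LRT and 3203 in HRT were called higher in plantaris, and 2650 and 3383 were called lower. Levels below are CPM, the counts of a gene relative to the total of its library after TMM scaling, and are compared between libraries and not between genes. Differences are log2 fold changes with their standard error (SE) and 95% interval, from edgeR's quasi-likelihood test on all 48 libraries with RIN as a covariate. A gene is called when its adjusted p, over all 16960 genes, is under 0.05. Where a rat is said to be left out, the plantaris and the soleus library of that line, treatment and replicate number were both dropped. The labels do not say that a number marks the same rat in both muscles.

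**Figure D1:**
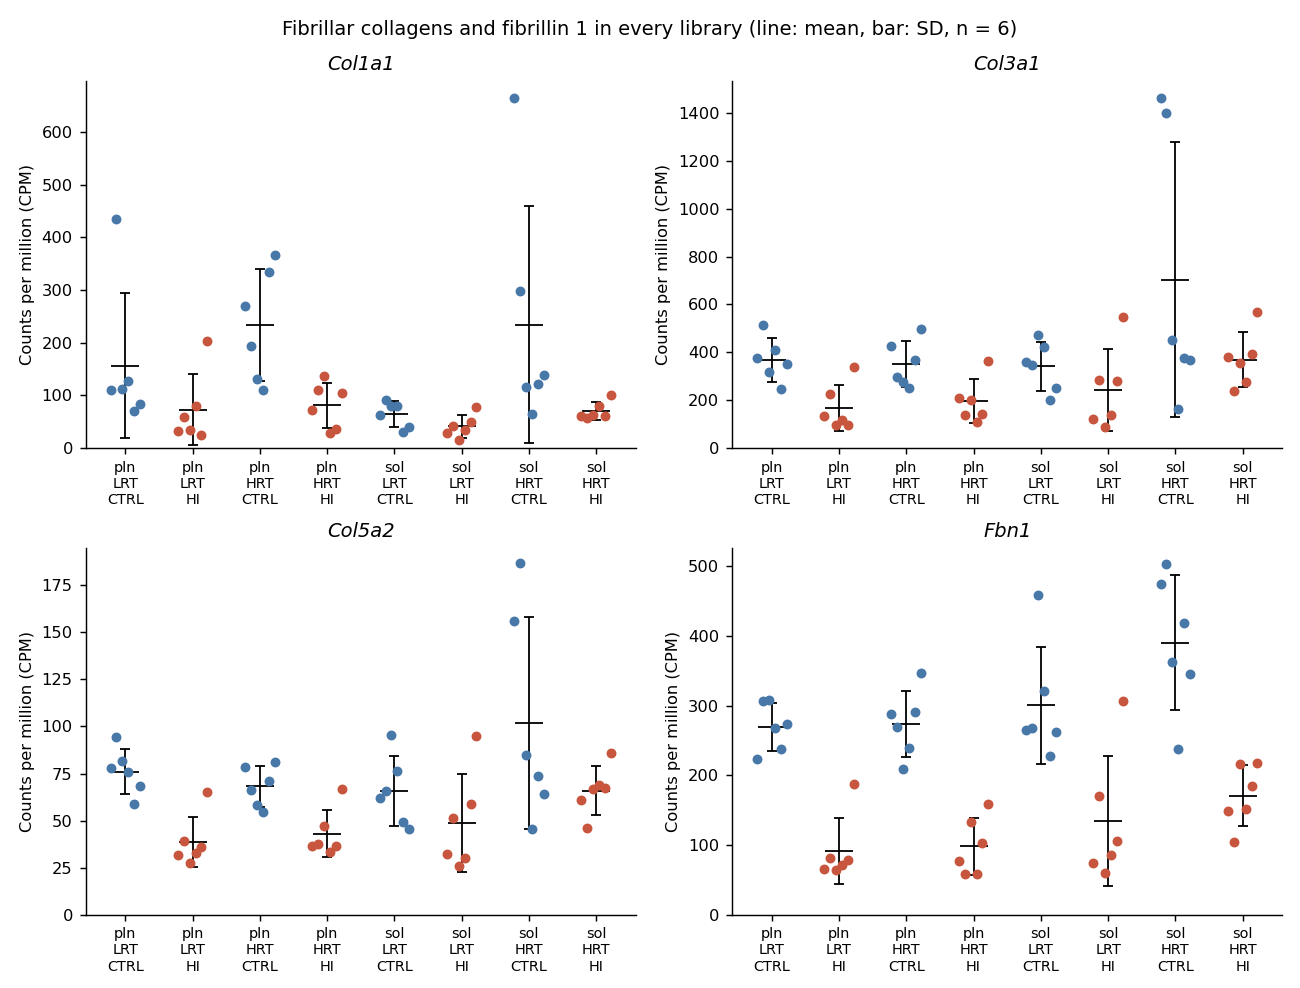
CPM (linear axis from 0) of Col1a1, Col3a1, Col5a2 and Fbn1 in each of the 48 libraries, 1 point per rat in plantaris (pln) and soleus (sol), with the mean and SD of each group of 6. Fbn1 in HI (red) lies below every CTRL library (blue) in 3 of the 4 pairs of groups, while the collagen chains overlap in each pair. For Col3a1 and Col5a2, soleus HRT CTRL holds 2 libraries far above the rest.

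Fbn1 fell in both muscles of both lines after 3 d of immobilization. The estimate was largest in LRT plantaris, at 3.04-fold, against 2.83-fold in HRT plantaris. The order of these 2 turned without the HRT HI rat numbered 6. In plantaris of LRT rats, the CTRL libraries had a lowest, median and highest level of 224, 271 and 308 CPM, and the HI libraries 64.3, 74.8 and 187 CPM. In plantaris of HRT rats the CTRL libraries had 209, 279 and 347 CPM and the HI libraries 58.7, 89.7 and 159 CPM. The HI and CTRL libraries did not overlap in either line. In soleus of HRT rats the CTRL libraries had 238, 391 and 504 CPM and the HI libraries 105, 168 and 218 CPM, again with no overlap. In soleus of LRT rats the CTRL libraries had 228, 266 and 460 CPM and the HI libraries 59.9, 95.8 and 307 CPM. Here 5 of 6 HI libraries lay below every CTRL library, and the HI library numbered 6, at 307 CPM, was above all but 2 CTRL libraries.

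The log2 fold change of Fbn1 was -1.60 (SE 0.30, 95% interval -2.21 to -0.999, adjusted p = 0.000115) in LRT plantaris and -1.50 (SE 0.29, -2.10 to -0.905, adjusted p = 0.00134) in HRT plantaris. In soleus it was -1.14 (SE 0.29, -1.73 to -0.555, adjusted p = 0.00697) in LRT and -1.14 (SE 0.30, -1.75 to -0.541, adjusted p = 0.00755) in HRT. The levels in HI were 2.21-fold lower than in CTRL in both lines of soleus. The 2-sided exact permutation test of 6 against 6 libraries gave p = 0.00217 in each comparison but that of LRT soleus, where p = 0.0108. The first is the smallest p that 924 splits can give. The call held in each of the 4 comparisons under all 10 other settings of the fit and with each of the 24 rats left out. The highest adjusted p with a rat left out was 0.0387, in LRT soleus.

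Of the 176 genes called lower in all 4 comparisons of HI with CTRL, which is 1.04% of those tested, Fbn1 was 1, and the 3 collagen chains were not among them. The 4 comparisons use different libraries, but the plantaris and soleus came from the same rats.

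The collagen chains fell in plantaris of LRT rats, where all 4 members were called lower, against 13.6% of all tested genes in that direction. Of the 4, only Fbn1 had HI libraries that all lay below the CTRL libraries, as 5.74% of all genes did. Col3a1 had a lowest, median and highest level of 245, 364 and 513 CPM in CTRL and of 94.2, 126 and 337 CPM in HI. Its log2 fold change was -1.25 (SE 0.41, adjusted p = 0.0175). Col5a2 had 58.5, 76.8 and 94.3 CPM in CTRL and 27.5, 34.4 and 65.0 CPM in HI, with a log2 fold change of -1.05 (SE 0.27, adjusted p = 0.00327). For both genes 5 of 6 HI libraries lay below every CTRL library, and the remaining HI library was the one numbered 6. Col1a1 had 70.3, 111 and 435 CPM in CTRL and 24.2, 46.8 and 203 CPM in HI. Its log2 fold change was -1.36 (SE 0.53, adjusted p = 0.0471), and 4 of 6 HI libraries lay below every CTRL library.

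The call of Col1a1 in LRT plantaris held neither with each rat left out nor under every setting with all rats kept. The adjusted p was 0.0815 with library totals in place of TMM, 0.0868 without RIN, 0.0645 when genes of any count were tested and 0.215 when each muscle was fitted alone, and the 2-sided exact permutation test gave p = 0.0649. The CTRL library numbered 2 held 435 CPM and the other 5 between 70.3 and 127 CPM. Without that rat the log2 fold change of Col1a1 was -0.70 (adjusted p = 0.303). Without the HI rat numbered 6 it was -1.83 (adjusted p = 0.00511), and the call was lost with any of 12 rats left out. The calls of Col3a1 and Col5a2 held with each rat left out, with adjusted p of at most 0.0489 for Col3a1 and 0.0143 for Col5a2.

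In plantaris of HRT rats 2 of the 4 members were called lower, Col1a1 and Fbn1, against 5.85% of all genes. Of the 4, 1 (Fbn1) had groups that did not overlap, against 5.4% of all genes. Col1a1 had a lowest, median and highest level of 110, 231 and 366 CPM in CTRL and of 29.3, 88.1 and 137 CPM in HI. Its log2 fold change was -1.61 (SE 0.50, adjusted p = 0.0317), and the call was lost with any of 5 rats left out (adjusted p of up to 0.0944) and with each muscle fitted alone (adjusted p = 0.0772). Col3a1 had 249, 332 and 496 CPM in CTRL and 110, 172 and 364 CPM in HI, with a log2 fold change of -0.87 (SE 0.40, 95% interval -1.68 to -0.0744, adjusted p = 0.146). Col5a2 had 54.4, 68.5 and 81.1 CPM in CTRL and 33.4, 37.1 and 66.8 CPM in HI, with a log2 fold change of -0.70 (SE 0.27, 95% interval -1.24 to -0.161, adjusted p = 0.0791). Col5a2 was called in 2 other fits, at an adjusted p of 0.0443 with limma-voom and the rat as a random block and of 0.0307 with each muscle fitted alone. By the exact permutation test, not adjusted over genes, p was 0.0152 for Col3a1 and 0.00866 for Col5a2. For both, 5 of 6 HI libraries lay below every CTRL library, and the HI library numbered 6 was again the highest. That library had a RIN of 7.9, the lowest in plantaris, where the other 5 of its group had 8.4 to 8.5. In LRT plantaris the HI library numbered 6, the highest of its group for each member, had a RIN of 8.6. In soleus the HI libraries numbered 6 had a RIN of 8.2 in both lines. The part of RNA quality beyond the RIN term of the fit was not tested. Without the HRT HI rat numbered 6 all 4 members were called, Col3a1 at a log2 fold change of -1.50 (adjusted p = 0.0169) and Col5a2 at -1.07 (adjusted p = 0.0112).

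In soleus 0 of the 3 collagen chains were called in LRT rats and 1 in HRT rats. In LRT rats 1 of the 4 members was called lower, Fbn1, against 6.58% of all genes. Of the 4, 0 had groups that did not overlap, against 2.09% of all genes. Col1a1 had a lowest, median and highest level of 31.1, 71.0 and 91.7 CPM in CTRL and of 14.6, 38.7 and 77.1 CPM in HI, with a log2 fold change of -0.56 (SE 0.49, 95% interval -1.56 to 0.446, adjusted p = 0.494). Col3a1 had 199, 354 and 472 CPM in CTRL and 86.7, 210 and 547 CPM in HI, with a log2 fold change of -0.44 (SE 0.39, adjusted p = 0.495). Col5a2 had 45.5, 63.9 and 95.5 CPM in CTRL and 26.1, 41.8 and 95.1 CPM in HI, with a log2 fold change of -0.39 (SE 0.27, adjusted p = 0.344). The groups overlapped for each chain, and the medians in HI were below those in CTRL. With a rat left out the log2 fold change ran from -0.85 to -0.38 for Col1a1, from -0.85 to -0.27 for Col3a1 and from -0.69 to -0.21 for Col5a2. The lowest values were those without the LRT HI rat numbered 6, at adjusted p of 0.240, 0.127 and 0.0531.

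In soleus of HRT rats 2 of the 4 members were called lower, Col1a1 and Fbn1, against 8.23% of all genes. Of the 4, 1 (Fbn1) had groups that did not overlap, against 2.31% of all genes. Col1a1 had a lowest, median and highest level of 63.8, 131 and 664 CPM in CTRL and of 56.8, 61.6 and 101 CPM in HI. Its log2 fold change was -1.49 (SE 0.53, adjusted p = 0.0451). Col3a1 had 162, 414 and 1464 CPM in CTRL and 236, 369 and 567 CPM in HI, with a log2 fold change of -0.76 (SE 0.42, adjusted p = 0.206). Col5a2 had 45.7, 79.3 and 187 CPM in CTRL and 46.2, 67.2 and 85.9 CPM in HI, with a log2 fold change of -0.52 (SE 0.28, adjusted p = 0.195). With a rat left out these ran from -1.01 to -0.46 for Col3a1 and from -0.69 to -0.30 for Col5a2. The CTRL libraries numbered 1 and 2 stood apart in each chain. They held 664 and 299 CPM of Col1a1 where the other 4 held 63.8 to 139, and 1464 and 1401 CPM of Col3a1 where the other 4 held 162 to 451. Without the rat numbered 1 the log2 fold change of Col1a1 was -0.96 (adjusted p = 0.180), and the call was lost with any of 15 rats left out. With all rats kept it was lost in 6 other fits, with adjusted p between 0.0539 and 0.0935.

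**Figure D2:**
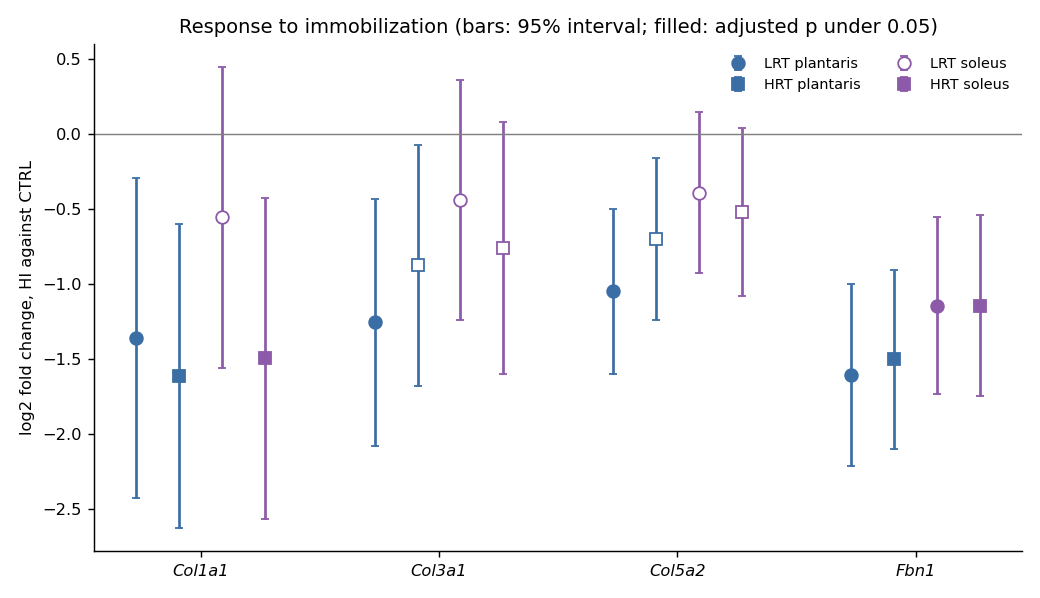
Log2 fold change of each member, HI against CTRL, with its 95% interval, in LRT (circles) and HRT (squares), plantaris (blue) and soleus (purple), filled where the adjusted p is under 0.05. All 16 estimates are below 0, and 9 of them are filled, 4 of these for Fbn1.

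**Figure D3:**
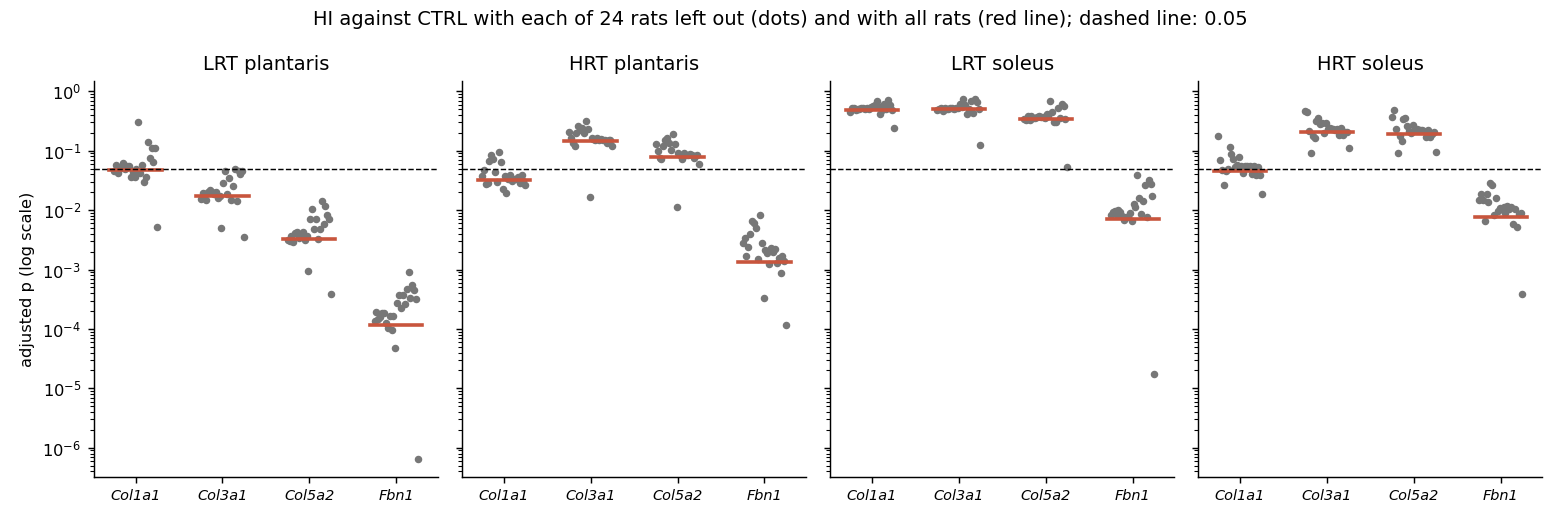
Adjusted p (log axis) of each member, HI against CTRL, with all rats (red lines) and with each of the 24 rats left out in turn (dots), with 0.05 dashed. The dots of Fbn1 stay under 0.05 in each panel, with a highest value of 0.0387, and those of Col1a1 lie on both sides of the line in 3 of the panels.

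The median log2 fold change of the 4 members was -1.31 in LRT plantaris, -1.19 in HRT plantaris, -0.50 in LRT soleus and -0.95 in HRT soleus. Over all tested genes the median lay between 0.0097 and 0.0181 in the same comparisons. In the order of mean level over the 8 groups, Fbn1 had its 4 CTRL groups on top, from 390.5 ± 96.7 CPM (SD, n = 6) in HRT soleus to 269.7 ± 34.3 CPM in LRT plantaris, and its 4 HI groups below, from 170.7 ± 43.9 CPM in HRT soleus to 91.5 ± 47.3 CPM in LRT plantaris. The step between these sets, of 99.0 CPM, was the only one between neighbours that was larger than the SD of both groups. For Col1a1, Col3a1 and Col5a2 no neighbouring groups in the order differed by more than the larger SD. The highest mean of Col3a1, Col5a2 and Fbn1 was that of HRT soleus CTRL, with 704 ± 573 CPM for Col3a1. For Col1a1 that group had 234 ± 225 CPM and HRT plantaris CTRL 234 ± 106 CPM, and their medians were 131 and 231 CPM, so that the place of the first rests on the library at 664 CPM. The lowest mean was that of LRT plantaris HI for Col3a1, Col5a2 and Fbn1, and that of LRT soleus HI for Col1a1, with 41.1 ± 21.2 CPM.

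Within a library, the level of Fbn1 relative to Col5a2 was lower in HI than in CTRL in each of the 4 comparisons. This was tested on the log2 ratio of CPM by 2-sided exact permutation tests of 6 against 6 libraries, in 16 tests that were chosen after the values had been seen. The log2 ratio of Fbn1 to Col5a2 differed by -0.65 in LRT plantaris (exact p = 0.00433, adjusted over the 16 tests p = 0.0173) and by -0.87 in HRT plantaris (exact p = 0.00217, adjusted p = 0.0115). In soleus it differed by -0.83 in LRT (exact p = 0.00217, adjusted p = 0.0115) and by -0.72 in HRT (exact p = 0.0108, adjusted p = 0.0288). The log2 ratio of Fbn1 to Col3a1 differed too, and the difference passed in HRT plantaris (-0.64, exact adjusted p = 0.0277) and LRT soleus (-0.65, exact adjusted p = 0.0115), and not in LRT plantaris (-0.39, exact adjusted p = 0.152) or HRT soleus (-0.63, exact adjusted p = 0.182). Relative to Col1a1, the ratio of Fbn1 differed by -0.65 to 0.12, and none of the 4 differences passed by the exact test (lowest adjusted p = 0.0519, in LRT soleus, with an unadjusted exact p = 0.0260). Col1a1 relative to Col3a1 was lower in HI in HRT soleus, by -0.75 (exact p = 0.0130, adjusted p = 0.0297). In HRT plantaris that ratio differed by -0.67 (exact adjusted p = 0.135), and in the LRT muscles by 0.058 and -0.0072.

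Whether the lines responded differently was tested as DELTA, the log2 fold change in LRT minus that in HRT. In plantaris 0 of the 4 members were called by edgeR, 0 had an unadjusted p under 0.05, and limma-voom and DESeq2 called 0. Of all genes 0.0% were called. DELTA was 0.25 (95% interval -1.17 to 1.66) for Col1a1, -0.38 (-1.51 to 0.754) for Col3a1, -0.35 (-1.10 to 0.412) for Col5a2 and -0.10 (-0.927 to 0.720) for Fbn1. The sign of Col1a1 turned without the LRT HI rat numbered 6, to -0.26, and the signs of Col3a1 and Fbn1 turned without the HRT HI rat numbered 6, to 0.11 and 0.18. Col5a2 was at -0.047 without that rat and at -0.52 without the LRT HI rat numbered 6. In soleus 0 members were called by edgeR, 0 had an unadjusted p under 0.05, and limma-voom and DESeq2 called 0, against 0.0295% of all genes. DELTA was 0.94 (-0.476 to 2.36) for Col1a1, 0.32 (-0.821 to 1.46) for Col3a1, 0.13 (-0.637 to 0.889) for Col5a2 and -0.0014 (-0.821 to 0.818) for Fbn1. With a rat left out DELTA in soleus ran from 0.39 to 1.17 for Col1a1, from 0.026 to 0.57 for Col3a1, from -0.099 to 0.30 for Col5a2 and from -0.39 to 0.18 for Fbn1. The value of 0.39 was that without the HRT CTRL rat numbered 1. Col3a1 was at -0.20 with limma-voom, with or without the rat as a random block. The intervals reach from negative to positive values for each gene.

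Whether the muscles responded differently was tested as the response of plantaris minus that of soleus. In LRT rats 0 of the 4 members were called by edgeR, with 0 at an unadjusted p under 0.05 and 0 calls by limma-voom and DESeq2, against 2.18% of all genes. All 4 estimates were negative, at -0.81 (95% interval -2.29 to 0.682) for Col1a1, -0.81 (-1.96 to 0.339) for Col3a1, -0.65 (-1.43 to 0.118) for Col5a2 and -0.46 (-1.30 to 0.379) for Fbn1. In HRT rats 0 members were called by edgeR, with 0 at an unadjusted p under 0.05 and 0 calls by limma-voom and DESeq2, against 0.0943% of all genes. The estimates were between -0.36 for Fbn1 and -0.11 for Col3a1. With a rat left out the estimate of Col1a1 in LRT ran from -1.08 to -0.26, and in HRT those of Col1a1 and Col3a1 reached 0.17 and 0.15, while Col5a2 ran from -0.63 to -0.020 and Fbn1 from -0.76 to -0.23. These shares come from a fit that takes the muscles as independent. With a block for each rat 619 genes were called higher and 660 lower in LRT, and 60 and 69 in HRT, with 0 of the 4 members in either line. The larger falls in plantaris than in soleus are therefore not shown to differ.

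The lines were also compared at the same treatment. In CTRL soleus 0 members were called by edgeR, against 1.45% of all genes, while 3 of the 4 were lower at an unadjusted p under 0.05, against 8.41% of all genes. Col1a1 had a lowest, median and highest level of 31.1, 71.0 and 91.7 CPM in LRT and of 63.8, 131 and 664 CPM in HRT, so that 5 of 6 HRT libraries lay above every LRT library. Its log2 difference, LRT minus HRT, was -1.72 (SE 0.51, adjusted p = 0.0701). DESeq2 called it at an adjusted p of 0.0306, limma-voom gave 0.120, and without the HRT CTRL rat numbered 1 the difference was -1.17 (adjusted p = 0.341). Col3a1 differed by -0.92 (adjusted p = 0.264), Col5a2 by -0.57 (adjusted p = 0.306) and Fbn1 by -0.35 (adjusted p = 0.611). In HI soleus 0 members were called by edgeR, 0 had an unadjusted p under 0.05 and limma-voom and DESeq2 called 0 and 0, against 12.2% of all genes. All 4 estimates were lower in LRT, from -0.78 for Col1a1 to -0.35 for Fbn1. Without the LRT HI rat numbered 6, Col5a2 (-0.72, adjusted p = 0.0469) and Fbn1 (-0.80, adjusted p = 0.0194) were called. Some marker genes were called between the lines in soleus too. Of the 5 fast fibre genes 2 were called higher in LRT in CTRL (Mylpf and Myoz1, at 1.46 and 1.44) and 2 in HI (Pvalb and Myoz1, at 2.46 and 0.86). In HI, 1 of 5 immune genes (RT1-Ba, at -1.16) and 1 of 5 red cell genes (Slc4a1, at -1.57) were called lower in LRT, with medians of -0.85 and -1.49 over these lists. Of all 16960 genes, 93 were called higher and 153 lower in LRT in CTRL soleus, and 1120 and 956 in HI soleus. Genes of connective tissue were lower in estimate in LRT in CTRL soleus, with 0 of 5 fibroblast genes called by edgeR (0 at an unadjusted p under 0.05, 5 negative, median -0.29), 0 of 2 tendon genes (both negative, median -1.06, Cilp2 at an unadjusted p of 0.0176) and 1 of 6 other fibrillar identifiers (6 negative, median -1.29), which was Col11a1 at -1.49 (adjusted p = 0.0252). In HI soleus these lists were lower in estimate in LRT too, with 0 genes called by edgeR. Of the 5 fibroblast genes 4 were negative (median -0.46). Both tendon genes (median -0.62) and all 6 other fibrillar identifiers (median -0.56) were negative. The part of these genes in the differences of the members was not tested.

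In plantaris of CTRL rats 0 members were called by edgeR, with 0 at an unadjusted p under 0.05 and 0 calls by limma-voom and DESeq2, against 0.525% of all genes, and the log2 differences were between -0.55 for Col1a1 (95% interval -1.53 to 0.440) and 0.15 for Col5a2. The median of Col1a1 was 111 CPM in LRT and 231 CPM in HRT. Its difference ran from -1.29 to -0.37 with a rat left out, the first without the LRT CTRL rat numbered 2 (adjusted p = 0.239). In HI rats 0 members were called by edgeR, with 0 at an unadjusted p under 0.05 and 0 calls by limma-voom and DESeq2, against 2.42% of all genes, and the differences were between -0.32 for Col3a1 and -0.13 for Fbn1. That of Col1a1 was -0.30 (95% interval -1.31 to 0.711), and it was -0.83 without the LRT HI rat numbered 6 and -0.0854 without the HRT HI rat numbered 6. Without the latter the differences of Col3a1 (0.16), Col5a2 (0.094) and Fbn1 (0.14) turned positive.

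Between muscles of CTRL rats, 1 of the 4 members was called lower in plantaris than in soleus in HRT rats, a share near the 19.9% of all genes called lower, and the call did not hold across fits. The member was Col3a1, and its log2 difference was -0.97 (SE 0.40, adjusted p = 0.0477), from a fit that takes the libraries of both muscles as independent. With a block for each rat it was -0.67 (adjusted p = 0.0505), and that fit called Col5a2 (-0.45, adjusted p = 0.0369) and Fbn1 (-0.48, adjusted p = 0.00785) instead, among 3683 of 16960 genes called lower. With limma-voom Col3a1 had an adjusted p of 0.211, and of 0.117 with the rat as a random block. The call was lost with any of 15 rats left out, and without the CTRL rat numbered 2 the difference was -0.66 (adjusted p = 0.247). In LRT rats 0 members were called by edgeR, against 32.6% of all genes, with 1 at an unadjusted p under 0.05 and 0 calls by limma-voom and 0 by DESeq2. That one was Col1a1, at 1.22 higher in plantaris (SE 0.50, adjusted p = 0.0535), where Col3a1 had 0.013 and Col5a2 0.14. Without the LRT CTRL rat numbered 2, whose plantaris held 435 CPM, the difference of Col1a1 was 0.54 (adjusted p = 0.478). With all rats kept and a block for each rat it was 1.01 and called (adjusted p = 0.0341). Of 2 tendon genes 1, Cilp2, was called higher in plantaris in LRT CTRL (1.93) and in HRT CTRL (1.33), with both estimates positive and medians of 1.52 and 1.09. Of all 16960 genes 2875 and 3203 were called higher in these comparisons. Of 5 fibroblast genes 1 was called higher and 0 lower in LRT CTRL (4 negative, median -0.25). In HRT CTRL 1 was called higher and 2 lower (4 negative, median -0.39). The part of these tendon and fibroblast genes was not tested. The differences between the lines in these comparisons of muscles were not tested.

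Across the rats of a muscle the 4 members went up and down together. The deviation of each library's log2 CPM from its group mean was correlated for the 6 pairs of members over 24 rats in each muscle, with permutations within groups and p-values adjusted over the 12 pairs. In soleus Pearson's r was between 0.683, for Col1a1 with Fbn1, and 0.965, for Col3a1 with Col5a2, and Spearman's rho was between 0.709 and 0.938 for the same pairs. In plantaris r was between 0.620 and 0.894 and rho between 0.563 and 0.816, for the same pairs again. The permutation p-values adjusted to between 2e-05 and 0.005 for r and between 2e-05 and 0.01 for rho, and the smallest unadjusted p, 1e-05, is the smallest that the permutations can give. For each pair, the 2 rats in which the first-named gene lay farthest from its median deviation were then left out. These rats can differ between pairs. Without them r was 0.962 for Col3a1 with Col5a2 in soleus and 0.799 in plantaris. It was 0.478 for Col1a1 with Fbn1 in plantaris (permutation p = 0.07, adjusted p = 0.07), so that it passed the threshold only with those rats included, and the other 11 relations held, with r of at least 0.581. Members share the library in which they were counted, and so its depth and scaling.

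**Figure D4:**
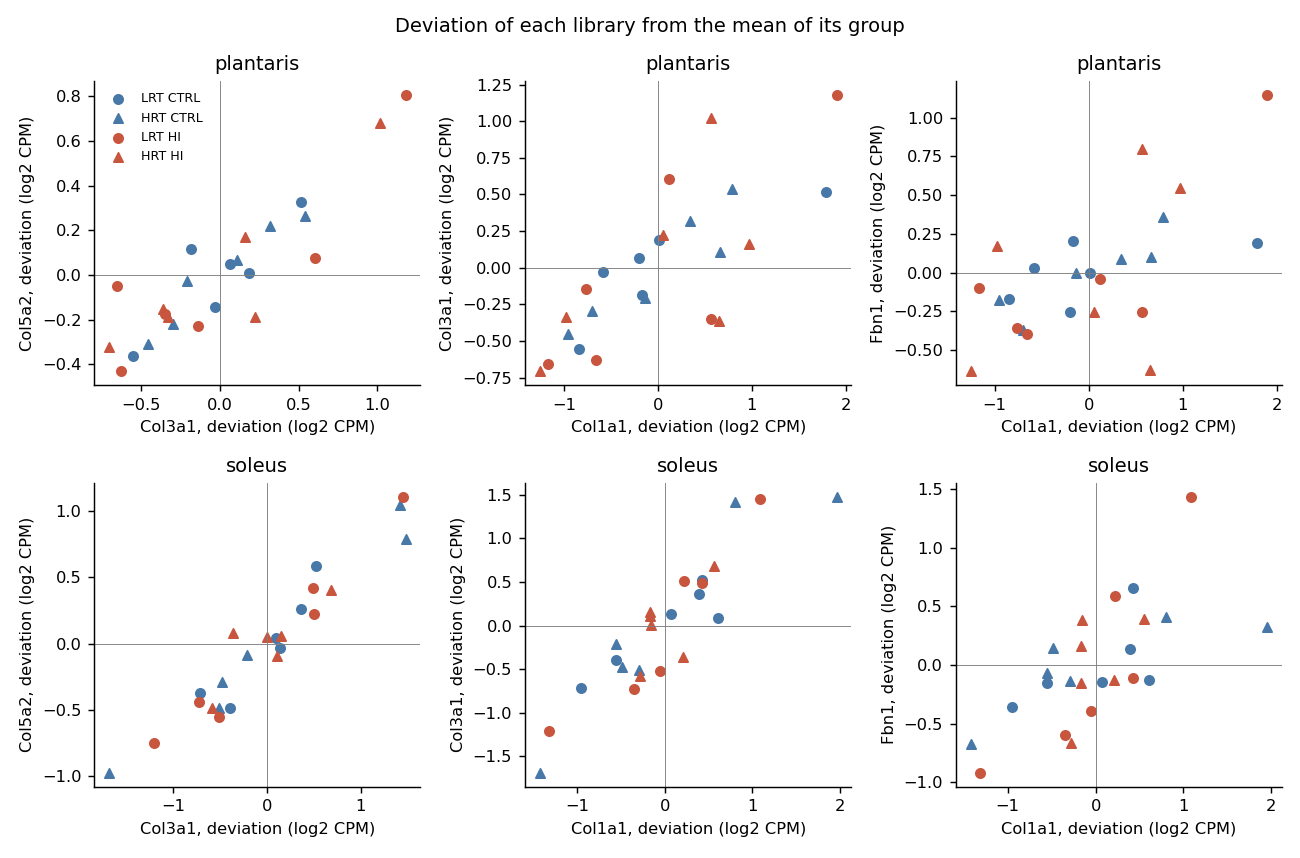
Deviation of each library from its group mean (log2 CPM) for 3 pairs of members in plantaris (top) and soleus (bottom), with LRT as circles, HRT as triangles, CTRL in blue and HI in red. Col3a1 and Col5a2 follow 1 line in both muscles (r = 0.894 and 0.965), and Col1a1 and Fbn1 scatter most (r = 0.620 and 0.683).

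In 15 of the 16 HI groups of a member, muscle and line, the highest library was the one numbered 6. These groups are the same HI libraries counted once for each member, and the members vary together. They are thus not independent, and the count is not read against chance. In LRT plantaris HI this library held 187 CPM of Fbn1 where the other 5 held 64.3 to 81.9, and in LRT soleus HI 307 CPM where the other 5 held 59.9 to 171. The exception was Col1a1 in HRT plantaris, where the HI library numbered 3 was highest, at 137 CPM.

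The genes whose pattern over all 48 libraries was most like each member were taken from the deviations from the 8 group means, among 16959 other genes. Only genes that the study's tables of differentially expressed genes (DEGs) pair with a symbol can be named. For Col3a1 and Col5a2 the gene ranked first was the other of the pair (r = 0.944). Col3a1 was next most like Col5a1 (r = 0.918, rank 2), the partner chain of type V collagen, and Loxl2 (0.873, rank 6), a lysyl oxidase that cross-links collagen. Col5a2 was next most like Loxl2 (0.896, rank 4) and Col5a1 (0.881, rank 10). Col1a1 was most like NEWGENE_621351, the second chain of type I collagen (0.988, rank 1), followed by Col5a1 (0.828, rank 4) and Col3a1 (0.815, rank 5). Fbn1 was most like Vcan (0.941, rank 2), which codes for the proteoglycan versican, followed by Loxl2 (0.893, rank 4) and Gas7 (0.844, rank 6). Col5a2 was rank 8 for Fbn1 (0.841), Col3a1 rank 19 (0.803) and Col1a1 rank 178 (0.642). These are descriptions over libraries that share their depth and scaling, and carry no p.

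The other genes of the matrix were taken as 44 identifiers in 9 roles, all of them from the study's DEG tables. They were thus chosen on these samples, and their directions are not independent evidence. In LRT plantaris 24 of the 44 were called lower and 5 higher, in HRT plantaris 19 and 2, in LRT soleus 12 and 0, and in HRT soleus 19 and 0. Of all tested genes, 15.1%, 5.11%, 7.36% and 7.95% were called higher in these comparisons, and the shares called lower are given above. Their median log2 fold change was -0.90, -0.86, -0.64 and -0.80 in the same order. Of the 44, 5 were called lower in all 4 comparisons, namely Col5a3, Creb3l1, Has2, Loxl1 and Thbs3.

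Of the 6 identifiers of other fibrillar chains, 2, 3, 1 and 3 were called lower in LRT plantaris, HRT plantaris, LRT soleus and HRT soleus, and 0 higher. Col5a3, another chain of type V collagen, fell in each, by 1.43 to 1.73 on the log2 scale (adjusted p of at most 0.000534). Col5a1 fell in 3 comparisons, by 0.92 in LRT plantaris, 0.93 in HRT plantaris and 1.27 in HRT soleus, and had -0.68 (adjusted p = 0.116) in LRT soleus. NEWGENE_621351 is listed under 2 identifiers, between which reads of near-identical copies could have been split, so that its values are uncertain. The first had -0.85, -1.11, -0.36 and -0.86 in the 4 comparisons and was called in HRT plantaris, and the second had between -1.07 and 0.32 with 0 calls. Col11a1 and Col11a2, the chains of type XI collagen, had -0.11 and 0.30 in LRT plantaris, and -1.03 (adjusted p = 0.0591) and -1.02 (adjusted p = 0.0972) in HRT plantaris, where all 6 estimates were negative. In soleus Col11a1 had 0.42 in LRT and -0.52 in HRT, and Col11a2 had -0.31 in LRT and fell by 1.23 in HRT. Of 4 other collagens, 2, 2, 1 and 3 were called lower and 0 higher. Col6a6, a type VI chain of the fibre surface, fell in 3 comparisons, by 1.12 to 1.33, and Colq, the collagen tail that anchors acetylcholinesterase at the endplate, fell in both lines of soleus, by 1.72 and 2.20.

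Of 6 microfibril and elastic fibre genes, the role that Fbn1 belongs to, 3, 4, 0 and 2 were called lower and 1, 0, 0 and 0 higher. Eln, elastin itself, fell by 0.93 in HRT plantaris and by 1.74 in HRT soleus and had -0.60 in both LRT muscles, which did not pass. Mfap5, a microfibril glycoprotein, fell by 1.03 and 1.02 in LRT and HRT plantaris. Adamtsl2, which binds fibrillin, fell by 1.75 and 1.43 there. Ltbp1, which tethers latent TGF-beta to the matrix, rose by 1.51 in LRT plantaris (adjusted p = 9.7e-05) and had 0.61 in HRT plantaris and negative values in soleus. In LRT plantaris Ltbp1 was thus called in the direction opposite to that of Fbn1, and the difference between these genes was not tested.

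Of 3 genes that cross-link or process collagen, 2, 2, 1 and 3 were called lower. Loxl1 fell in all 4 comparisons, by 0.76 to 1.33, and Loxl2 in 3, by 0.89 to 1.15. Adamts14, which trims procollagen, fell by 1.27 in HRT soleus. Of 8 matrix-binding genes, 6, 3, 2 and 3 were called lower and 0 higher. Thbs3, a thrombospondin, fell in all 4, by 1.02 to 1.30, and Vcan fell by 1.00 in LRT plantaris and had -0.61 to -0.85 elsewhere. Lum, which codes for lumican, a proteoglycan that coats collagen fibrils, fell by 1.09 and 0.97 in the plantaris of LRT and HRT rats. Of 3 hyaluronan genes, 2, 1, 3 and 1 were called lower and 0 higher, and Has2, which makes hyaluronan, fell in all 4 comparisons, by 0.90 to 1.30. Of 3 proteases, 2, 0, 2 and 0 were called lower by edgeR and 0 higher, and 2 (Adam12 and Adamts9) were lower at an unadjusted p under 0.05 in each HRT muscle. Adamts9 fell in both LRT muscles, by 0.68 and 1.34, and had -0.51 and -0.56 in HRT plantaris and soleus. Of 2 integrin receptors, 2, 1, 0 and 0 were called lower by edgeR and 0 higher, and 1 (Itga2) was lower at an unadjusted p under 0.05 in each soleus comparison. Itga2, which binds collagen, fell by 1.55 in HRT plantaris and 0.83 in LRT plantaris.

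The growth factor genes were mixed, and those that rose are named for their direction, after their values had been seen. Of 9, 3, 3, 2 and 4 were called lower and 4, 2, 0 and 0 higher. Creb3l1, a transcription factor that drives the secretion of collagen, fell in all 4 comparisons, by 0.86 to 1.22. Smad3, a transducer of TGF-beta signals, rose by 1.39 in LRT plantaris and 0.74 in HRT plantaris and had -0.0089 and -0.07 in LRT and HRT soleus. Tgif1, a repressor of that pathway, rose by 2.67 and 1.67 in the same muscles, and Pmepa1 and Cyr61 each rose by 1.09 in LRT plantaris. Ctgf, a target of the pathway that promotes matrix formation, fell by 1.24 in HRT soleus and had -0.15 to -0.63 elsewhere.

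**Figure D5:**
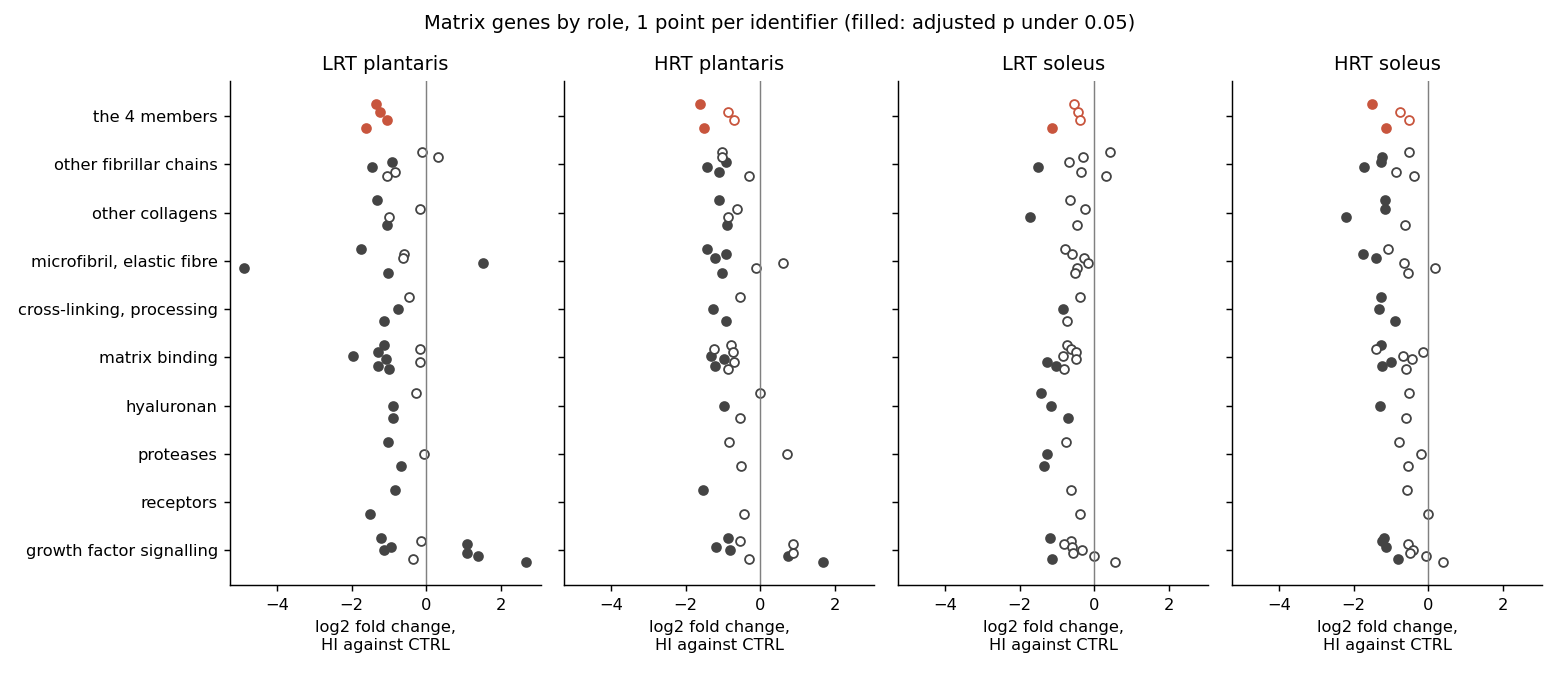
Log2 fold change, HI against CTRL, of the 4 members (red) and of 44 matrix identifiers in 9 roles (grey), 1 panel per muscle and line, filled where the adjusted p is under 0.05. Most points lie left of 0, and the filled points on the right are in the microfibril and growth factor roles of plantaris.

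Of 5 fibroblast genes (Pi16, Cd248, Islr, Dpp4 and Lum), 5 were called lower in LRT plantaris, 5 in HRT plantaris, 1 in LRT soleus and 3 in HRT soleus, against 13.6%, 5.85%, 6.58% and 8.23% of all genes. The estimates were negative for 5, 5, 5 and 4 of them. Cd248, a surface protein of stromal cells, fell in all 4, by 1.15 to 1.23. Their summed level was 73.0 to 95.6 CPM in LRT plantaris CTRL and 30.0 to 67.4 in HI, and 77.9 to 103 in HRT plantaris CTRL and 33.3 to 62.5 in HI. In soleus it was 81.9 to 113 in LRT CTRL and 39.7 to 104 in HI, and 78.8 to 168 in HRT CTRL and 64.9 to 88.0 in HI. None of the 5 was at 0 in a group, Lum is also among the matrix genes above, and the list comes from the study's DEG tables. Its part in the result was not tested. Of 2 tendon genes (Tnmd and Cilp2) 0 were called by edgeR in the 4 comparisons, both had an unadjusted p under 0.05 in HRT plantaris and Cilp2 in HRT soleus, with 4 negative estimates each for both genes and summed levels of 0.261 to 20.8 CPM over the groups.

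The fibre genes, which also come from the study's DEG tables and so were chosen on these samples, were compared between HI and CTRL too. Of the 5 fast fibre genes, 3 were called lower in LRT plantaris (Mylpf, Myoz1 and Casq1, which fell by 1.22, 1.01 and 1.49), against 13.6% of all genes, where all 5 estimates were negative with a median of -1.04. Their summed level there was 17070 to 22780 CPM in CTRL and 5725 to 14430 CPM in HI. In HRT plantaris, where it was 13100 to 15730 CPM in CTRL and 7079 to 13600 CPM in HI, 0 were called by edgeR, 1 (Casq1) had an unadjusted p under 0.05, and 4 estimates were negative with a median of -0.43. In soleus 1 was called in LRT rats, Pvalb, which rose by 3.23 where 3 of the 5 estimates were negative and the median was -0.15, and 0 by edgeR in HRT rats, with 2 (Atp2a1 and Pvalb, both higher) at an unadjusted p under 0.05. The summed level was 1063 to 2395 CPM (median 2153) in LRT CTRL and 1046 to 2155 CPM (median 1289) in HI, and 746 to 1516 CPM in HRT CTRL and 798 to 1424 CPM in HI. Of the 3 slow fibre genes (Casq2, Pln and Ankrd2), Casq2 fell by 1.42 in LRT plantaris, Pln rose by 0.95 in HRT plantaris and by 1.14 in HRT soleus, and 0 were called by edgeR in LRT soleus, with 1 (Casq2, lower) at an unadjusted p under 0.05. In both HRT muscles the estimates of Casq2 and Ankrd2 were negative, and the median of the 3 was -1.05 in plantaris and -0.49 in soleus, while in LRT plantaris 3 of 3 and in LRT soleus 2 of 3 were negative, with medians of -0.29 and -1.01. Their summed level was 130 to 225 CPM in LRT plantaris CTRL and 41.6 to 364 CPM in HI, and 99.6 to 215 CPM in HRT plantaris CTRL and 51.9 to 169 CPM in HI. In soleus it was 1389 to 2904 CPM in LRT CTRL and 173 to 2577 CPM in HI, and 918 to 2259 CPM in HRT CTRL and 202 to 1908 CPM in HI. None of the 8 was at 0 in a group, and their part in the results of the members was not tested.

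Blood and immune genes were called in HRT soleus. The lists hold only genes that the study's DEG tables name. All 5 red cell genes (Hba-a1, Hba-a2, Hbb, Alas2 and Slc4a1) were called higher in HI there, against 7.95% of all genes, with a summed level of 163 to 611 CPM in CTRL and 223 to 10500 CPM in HI, and 0 were called by edgeR in the other 3 comparisons. In HRT plantaris all 5 estimates were positive with a median of 1.43, 4 had an unadjusted p under 0.05, and the summed level was 265 to 406 CPM in CTRL and 239.5 to 3050 CPM in HI. In LRT plantaris all 5 estimates were negative with a median of -0.59, 0 had an unadjusted p under 0.05, and the summed level was 281 to 1114 CPM in CTRL and 183 to 498.5 CPM in HI. In LRT soleus 0 had an unadjusted p under 0.05, 4 of 5 estimates were positive, and the summed level was 218 to 966 CPM in CTRL and 484 to 1442 CPM in HI. Of 5 immune cell genes, RT1-Ba, Clec7a and S100a9 were called higher in HRT soleus HI, against the same share, with a summed level of the 5 of 10.7 to 18.8 CPM in CTRL and 23.1 to 45.1 in HI, and Siglec10 was called lower in plantaris of both lines. In plantaris 1 of the 5 estimates was negative in LRT and 2 in HRT, with medians of 0.28 and 0.22. None of these genes was at 0 in a group, and their part in the results was not tested.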

How the data were processed

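The 4 genes, the matrix roles and the marker lists were chosen with earlier results of these data known. According to the methods of the study, the authors quantified transcripts with Salmon 0.9.1 against the cDNA and non-coding RNA of Rnor_6.0 (Ensembl release 91) and used tximport to obtain gene values. The matrix that was deposited holds expected counts, which need not be whole and were not normalized between libraries, and they were rounded here. The labels and the methods differ on the library kit, so strand is not settled. Symbols were taken from the study's DEG tables, which pair 1149 of 31998 identifiers. Promoters are from RefSeq (GRCr8), matched through Entrez identifiers.

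Groups come from the labels. That the libraries of a group are separate rats comes from the methods of the study, and no 2 libraries of a group agreed within sampling noise (chi-square per gene of 12.0 to 263 over 120 pairs). edgeR 4.0.16 in R 4.3.3 fitted the 8 groups and RIN (quasi-likelihood, filterByExpr, TMM), with Benjamini-Hochberg adjustment over 16960 genes. SE was taken from the fold change and F, and intervals are 2.02 SE. log2 CPM used a prior count of 2. limma 3.58.1 and DESeq2 1.42.0 were alternatives. The fits were tested on simulated data. Correlations used 100000 permutations within groups. All members and, of each role, the genes called most often or with the smallest p, and all fibrillar chains, are named, and Vcan, Lum, Ctgf, Ltbp1 and the genes that rose were added after their values had been seen.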

Additional observations from a re-analysis of the deposited data

Results flagged for a closer look

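In 4 of 32 groups of 6 libraries, 1 library of a member stood apart from the other 5, with a gap to its nearest neighbour, relative to the range of the group, past Dixon's limit for 6 values, and chance alone would put about 1 in 20 groups past that limit. The 32 are 8 groups of libraries counted for each of 4 members that vary together, so they are not independent and the count is not read against chance. Col1a1 was at 435 CPM in plantaris LRT CTRL replicate 2, with a gap of 0.845 of the range. The other 3 were all in plantaris LRT HI replicate 6, which held 203 CPM of Col1a1 (gap 0.686), 65.0 CPM of Col5a2 (gap 0.690) and 187 CPM of Fbn1 (gap 0.856). The 2 high libraries of soleus HRT CTRL are near each other in Col3a1 and were not singled out by this measure, which looks at 1 library at a time.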

How the results depend on the processing

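The direction of all 16 log2 fold changes between HI and CTRL held in 560 refits and exact tests. A value under 0.05 was lost in 44 of these and gained in 6. The refits were judged by the adjusted p, and the exact tests by a p not adjusted over genes, which is not a call. By the exact test Col1a1 in LRT plantaris (p = 0.0649) is among the losses. Col3a1 (exact p = 0.0152) and Col5a2 (exact p = 0.00866) in HRT plantaris are among the gains. The calls lost were all of Col1a1, in plantaris of both lines and in HRT soleus. Of the members called in HRT soleus (2), 1 was left with library totals without TMM, with genes of any count, with the replicate block, with limma-voom, with the rat as a random block and with each muscle fitted alone. At an adjusted p under 0.001, 1 member was called in LRT plantaris and 0 in the other 3 comparisons with CTRL. In LRT against HRT, CTRL soleus, 1 member was called with library totals, without RIN and with DESeq2. Of all genes 504, 231 and 254 were called lower there, against 153 in the reported fit. In plantaris against soleus, LRT CTRL, 1 was called higher without RIN and with the replicate block by rat. Of all genes 3010 and 3301 were called higher, against 2875 in the reported fit. In HRT CTRL (1 called), 3 were called lower with library totals and 2 with the replicate block by rat, which were Col5a2 and Fbn1 and not Col3a1. Of all genes 5016 and 3683 were called lower, against 3383 in the reported fit. In HRT CTRL 0 members were called with genes of any count, limma-voom, the random block, an absolute log2 fold change over 1 or an adjusted p under 0.001. The correlation of Col1a1 with Fbn1 in plantaris was 0.478 without the 2 rats farthest from the median in Col1a1. The cause was not tested.

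With each rat left out, 3 to 4 members were called in LRT plantaris, 1 to 4 in HRT plantaris, 1 to 1 in LRT soleus and 1 to 2 in HRT soleus. Between lines it was 0 to 1 in CTRL soleus and 0 to 2 in HI soleus, and between muscles 0 to 1 in each line. DELTA in plantaris ran from -0.26 to 0.94 for Col1a1, from -0.62 to 0.11 for Col3a1 and from -0.43 to 0.18 for Fbn1, and in soleus from -0.099 to 0.30 for Col5a2 and from -0.39 to 0.18 for Fbn1. The response of plantaris minus soleus in HRT ran from -0.56 to 0.17 for Col1a1 and from -0.86 to 0.15 for Col3a1. LRT against HRT ran, in CTRL plantaris, from -0.093 to 0.17 for Col3a1 and from -0.12 to 0.045 for Fbn1, and in HI plantaris from -0.56 to 0.16 for Col3a1, from -0.36 to 0.094 for Col5a2 and from -0.44 to 0.14 for Fbn1. Plantaris against soleus ran from -0.16 to 0.22 for Col3a1 in LRT and from -0.22 to 0.58 for Col1a1 in HRT. Lone libraries were not left in any group.

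The sign turned in some values that were not called. DELTA in soleus was -0.20 and -0.20 for Col3a1 with limma-voom and the random block. For Col5a2 it was -0.0013 with the replicate block, -0.092 and -0.0902 with limma-voom and the random block, and -0.046 with each muscle fitted alone. For Fbn1 it was 0.0059 with DESeq2's size factors, 0.071 with library totals, 0.030 without RIN, 0.000979 with genes of any count, 0.0035 with a minimum of 10 counts per library, and 0.0059 with DESeq2. The response of plantaris minus soleus in HRT was 0.018 and 0.21 for Col1a1 and 0.023 and 0.080 for Col3a1, with library totals and without RIN. For Col3a1, LRT against HRT in CTRL plantaris was -0.024 with library totals, and plantaris against soleus in LRT was -0.11 with library totals, -0.020 with at least 10 counts and -0.0524 with the replicate block. For Col1a1, plantaris against soleus in HRT was -0.16 with library totals and -0.000922 without RIN.

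The replicate numbers are shared by the groups. Libraries of plantaris and soleus with the same number correlated over 0.1 in 22 of 24 pairs (r of -0.05 to 0.392), and 22 of 24 correlated best with their own number, which is a hint from the data and not the design. Since not every pair did, the fit whose values are reported has no block by number. The fits with a rat left out, the random block and the block by rat do take libraries of 1 line, treatment and number as 1 rat, which the labels do not say. Of HI and CTRL pairs 0 of 24 correlated over 0.1. Beside HRT soleus, where the replicate block left 1 member called, the block of 6 numbers changed no other count of members. At these depths counting noise is small, and the spread between 6 rats sets what can be seen.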
